A study of Mus musculus with 31 samples.

Results

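The genes examined here encode components of the centrosome, its centrioles and the augmin complex. They comprise 34 genes whose symbol is Cep followed by a number and 39 further genes chosen by name, 73 of the 24594 genes in the count tables of the series. They were divided by known role into 10 subsets. The centrosome is built around a pair of centrioles, barrels of microtubules that are copied during each cell cycle, and the surrounding pericentriolar material anchors the gamma-tubulin ring complex, the template from which new microtubules grow. Augmin brings the same ring complex to the sides of existing spindle microtubules, and centriolar satellites are granules that carry proteins to and from the centrosome. In cells under proteotoxic stress, misfolded proteins are moved along microtubules to an aggresome next to the centrosome. The study of these cells turned to microtubule organization after centrosomal proteins stood out among its translation targets from these same libraries. It cited the transport of aggregates along microtubules as a further reason.

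The cells were a mouse skin squamous cell carcinoma (SCC) line, whose genotype the labels give as HRasG12V:TgfbrIIfl/fl and the study's list of cell lines as HRasG12V TgfbrII D/D, carrying an eGFP reporter, in which the endogenous Eif2s1 gene, encoding eIF2α, had been ablated with CRISPR-Cas9 and replaced by a PGK-promoter-driven, myc-tagged cDNA. S51 cells carry the wild-type protein and S51A cells the form that cannot be phosphorylated at serine 51, so that they cannot mount the integrated stress response (ISR). Each genotype was treated for 4.5 h with vehicle (DMSO) or 100 nM of the proteasome inhibitor bortezomib. Ribosome-protected fragments (RPF, the pieces of mRNA covered by translating ribosomes) were sequenced from 3 S51 vehicle libraries and 4 libraries of each other group, and total RNA from 4 libraries per group. The lines were grown from single cells, so differences of genotype and of clone cannot be told apart. The labels do not say that replicates came from separate cultures, and p-values therefore measure only the spread between these libraries, which may be technical.

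RPF libraries held 1038826 to 4902237 counts, of which 2005 to 10379 fell on the 73 genes, and total RNA libraries held 18758668 to 22994713, of which 49469 to 71142 fell on them. The RPF comparisons are therefore much less precise than those of total RNA. Basal keratinocyte markers summed to at least 23016 CPM (counts per 1000000 counts of the TMM-scaled library) in every RPF library, whereas fibroblast, immune and endothelial markers summed to at most 16.9 CPM. RPF of Hspa1b, a chaperone gene of the heat shock response, passed the test as higher after bortezomib in both genotypes (log2 fold change 4.96 in S51 and 4.49 in S51A), and RPF of Atf4, the main transcription factor of the ISR, passed in S51 (1.46) but not in S51A (0.06). Replicate 2 of the S51 vehicle RPF group stood apart: it differed from the other replicates of its group by a chi-square of 12.8 and 18.1 per gene, against at most 4.92 for other RPF pairs. The counts of RPF calls are given below with and without it. Of the single RPF changes whose call it decides, only some are given.

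After a filter on low counts, 65 of the 73 genes could be tested in RPF and 71 in total RNA. Hap1, Cep19, Cep97, Cep126, Cep131, Cep72, Cntln and Cep112 had too few RPF counts, and Cntln and Cep112 too few counts in total RNA as well. A gene is said to have risen, fallen or passed when its Benjamini-Hochberg adjusted p was below 0.05 in edgeR's quasi-likelihood test over all genes. Translation efficiency (TE) is the ratio of RPF to total RNA and was tested as an interaction in a single model of both kinds of library.

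These mRNAs have long coding sequences and low RPF levels. The 65 genes tested in RPF had a median coding length of 2484 nt, against 1395 nt for the genes tested, and a median RPF level in vehicle-treated S51 cells of 7.45 CPM per kb of coding sequence, against 23.6. The highest RPF levels per kb belonged to Plk1, the polo-like kinase that drives centrosome maturation and mitotic entry (178 CPM per kb), and Cep20, a small centrosomal protein (118 CPM per kb). They were followed by Cep55, which acts at the midbody during abscission (85.4 CPM per kb), Tubg1, gamma-tubulin itself (75.1 CPM per kb), and Cetn3, a centrin (71.6 CPM per kb). An AUG triplet lay upstream of the start codon in 37 of the 65 genes (56.9%), against 48.7% of the genes tested. Triplets were searched in the annotated transcript with the longest coding sequence, and their use by ribosomes was not tested. For Alms1, Cep164 and Cep170 that transcript has 0 nt before the start codon, so they count as having none.

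In S51 cells bortezomib moved few of these genes in RPF. Of 65 genes, 7 rose (10.8%, against 14.8% of all 9457 genes tested) and 4 fell (6.15%, against 16%), and the median log2 fold change was 0.02. The genes that rose were Cspp1 (log2 fold change 1.06), Haus3 (0.88), Akap9 (0.58), Cep76 (0.54), Alms1 (0.53), Cep20 (0.46) and Cep120 (0.39). Those that fell were Cntrob (-1.07), Cep68 (-0.57), Cep78 (-0.52) and Plk1 (-0.42). Without the S51 vehicle library that stood apart, the balance turned. Of 68 genes, 4 then rose (Cspp1, Haus3, Cep20 and Pard6a) and 7 fell (Cep44, Cep55, Cep68, Cep78, Haus1, Plk1 and Plk4), with a median of -0.07, and 6 of the 11 genes above passed in both. Only Cep20 and Plk1 passed whichever of the 15 RPF libraries was left out.

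Haus3, an augmin subunit, was low in that library. Its RPF level in S51 vehicle cells was 21.96, 4.35 and 24.9 CPM, the second value being that of the library that stood apart. In S51 bortezomib cells it was 31.3, 27.7, 39.3 and 33.6 CPM, above every vehicle value. The log2 fold change was 0.88 ± 0.28 (SE; edgeR adjusted p = 0.0223) with all libraries and 0.53 without replicate 2 of S51 vehicle, where it also passed. It missed the threshold without replicate 3 of S51 bortezomib (edgeR adjusted p = 0.092). Total RNA of Haus3 rose as well, from 38.4, 42.3, 44.2 and 40.7 CPM to 52.4, 52.1, 56.3 and 58.2 CPM (log2 fold change 0.40 ± 0.05). Both groups of total RNA libraries were separate.

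**Figure D1:**
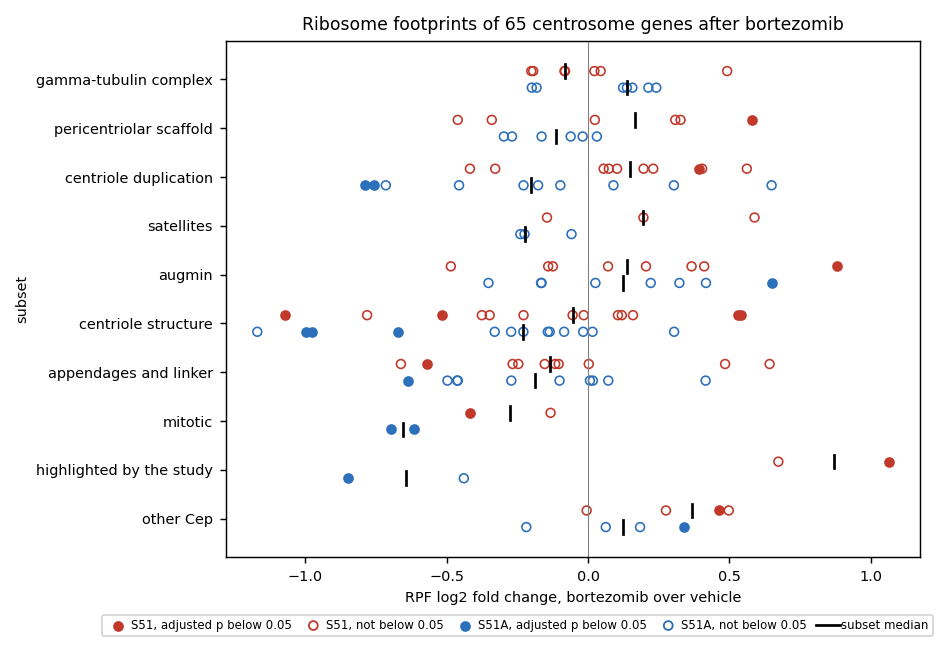
RPF log2 fold change of bortezomib over vehicle (x axis) for the 65 genes tested, by subset (y axis), with S51 in red and S51A in blue. Filled points had an edgeR adjusted p below 0.05 and black bars mark the subset medians: the gamma-tubulin complex has no filled point in either genotype, and both mitotic genes are filled in S51A. Of all genes tested, 14.8% rose and 16% fell in S51, and 9.25% rose and 11.4% fell in S51A.

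The study placed Cspp1, Pard6a and Hap1 among the genes of interest from these same libraries. Its targets had to be higher in S51 bortezomib cells than in both S51 vehicle and S51A bortezomib cells, in RPF and in TE. The direction of these 3 genes in either comparison, or in the difference of responses, is therefore not independent evidence. Cspp1, on chromosome 1 (10038116 to 10136771, GRCm38), encodes a protein of centrosomes and spindle poles that stabilizes microtubules. Its RPF level was 2.83, 4.35 and 5.48 CPM in S51 vehicle and 7.28, 6.70, 9.46 and 11.8 CPM in S51 bortezomib cells. Every treated library lay above every vehicle library, and the log2 fold change was 1.06 ± 0.34 (SE; edgeR adjusted p = 0.0218), and 1.07 without replicate 2, where it passed. It missed the threshold in 3 of the 15 fits that left out 1 library (up to 0.0883). In S51A the order was the opposite. RPF of Cspp1 was 9.81, 5.28, 10.8 and 7.71 CPM in vehicle and 5.15, 2.92, 3.12 and 5.80 CPM in bortezomib cells, where the groups overlapped between 5.28 and 5.80 CPM, and the log2 fold change was -0.85 ± 0.30 (edgeR adjusted p = 0.0495). These levels are low: single libraries held 6 to 38 RPF counts of Cspp1.

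The difference between the responses of the genotypes was tested for every gene. Of the 65 genes, Cspp1 alone passed in RPF (1.54%, against 1.04% of genes higher in S51 and 1.31% lower). Without the S51 vehicle library that stood apart, 3 of 68 were higher, Cspp1 (1.90), Pard6a (1.51) and Plk1 (0.45), against 2.54% of genes higher. Its response was 1.91 ± 0.45 (SE) log2 units higher in S51 than in S51A (edgeR adjusted p = 0.0261). It missed the threshold in 8 of the 15 fits that left out 1 library: replicates 1, 3 and 4 of S51A vehicle, 2 and 3 of S51A bortezomib, 3 and 4 of S51 bortezomib, and 1 of S51 vehicle, with edgeR adjusted p from 0.0505 to 0.0763. DESeq2 gave 1.95 but no adjusted p for Cspp1. Stil, which recruits the cartwheel protein to new centrioles, had a difference of 0.95 ± 0.28, with an adjusted p of 0.0747 by edgeR and 0.0334 by DESeq2, and 0.0518 by edgeR without that library.

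Total RNA of Cspp1 was steadier than its RPF. It was 17.3, 15.5, 15.4 and 15.5 CPM in S51 vehicle, 16.3, 15.9, 17.5 and 15.4 CPM in S51 bortezomib, 19.2, 17.3, 19.9 and 18.4 CPM in S51A vehicle and 16.2, 14.4, 17.3 and 14.2 CPM in S51A bortezomib cells. The S51 groups overlapped and did not pass (0.04 ± 0.07), whereas the S51A response passed (-0.27 ± 0.07). In the ratio, Cspp1 passed as higher after bortezomib in S51 (1.03 ± 0.31, edgeR adjusted p = 0.0281). The adjusted p was 0.0701 with the lysate as a block, and up to 0.111 in the 3 of 31 fits without 1 library that lost the call. Its ratio in S51A was -0.54 ± 0.28 (edgeR adjusted p = 0.79). The difference of the ratios was 1.58 ± 0.42 (edgeR adjusted p = 0.0388), but 0.105 was the adjusted p with the lysate as a block, and 12 of 31 single libraries left out took it to between 0.0514 and 0.107.

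Pard6a encodes a polarity protein that also organizes pericentriolar material. Its RPF level was 4.61, 11.6 and 5.73 CPM in S51 vehicle and 10.2, 10.5, 9.08 and 14.6 CPM in S51 bortezomib cells. The highest vehicle value is again that of replicate 2, and the groups overlapped. The log2 fold change was 0.67 ± 0.33 (edgeR adjusted p = 0.124), and 1.06 without that replicate, where it passed. In S51A, Pard6a was at 4.67, 6.12, 6.22 and 7.71 CPM in vehicle and 4.19, 3.41, 8.32 and 3.48 CPM in bortezomib cells. Those groups overlapped too (-0.44 ± 0.33, edgeR adjusted p = 0.379). Hap1, which carries cargo along microtubules, was not tested in RPF with all libraries. It was at 2.83, 1.93 and 1.49 CPM in S51 vehicle and 2.91, 5.74, 3.40 and 6.16 CPM in S51 bortezomib cells, from 4 to 11 counts per library. Its total RNA differed by 0.00 ± 0.18 between those groups. Without replicate 2 of S51 vehicle, Hap1 was tested in RPF and was higher in S51 than in S51A under bortezomib (1.56, edgeR adjusted p = 0.0144). It met the count filter there only through replicates 2 and 4 of S51 bortezomib (5.74 and 6.16 CPM). They belong to the group then called higher, so the filter itself favoured this direction. The S51A bortezomib libraries held 1 to 7 RPF counts of Hap1.

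**Figure D2:**
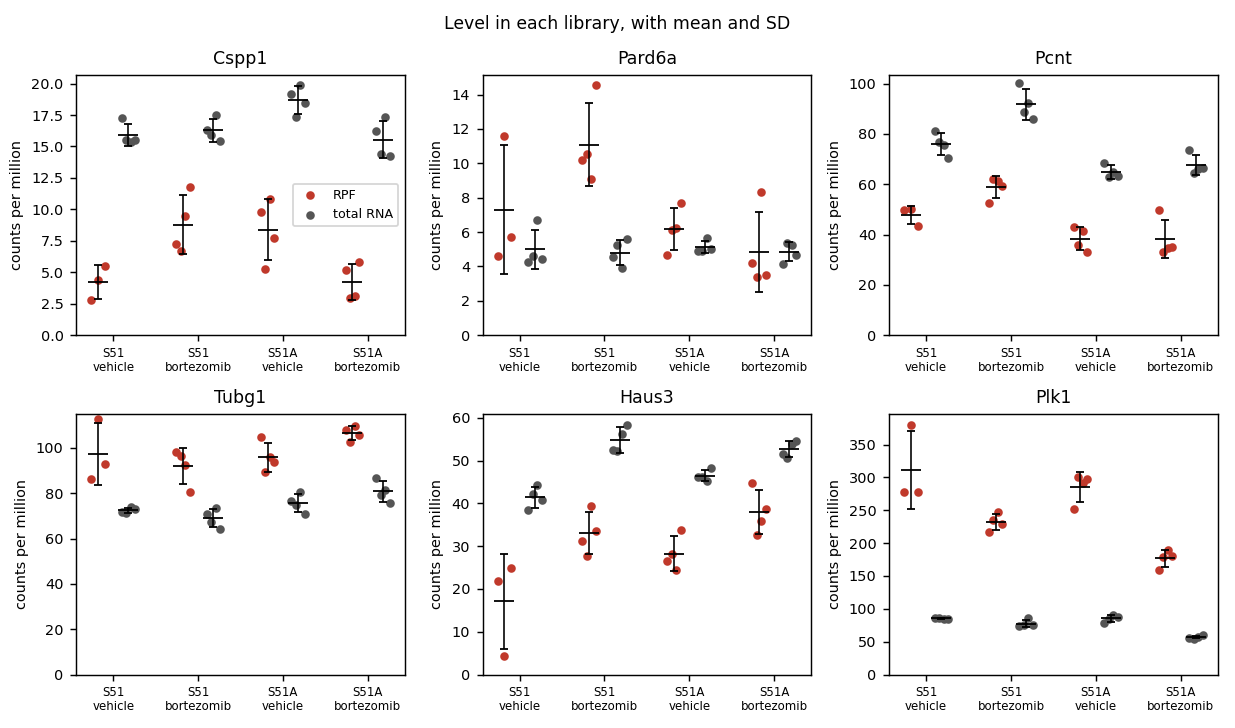
CPM (y axes, each from 0) of 6 genes in each library by group (x axes), RPF in red and total RNA in grey, with the mean and SD of each group. RPF of Cspp1 is higher in S51 bortezomib and S51A vehicle cells while its total RNA stays between 14.2 and 19.9 CPM; the low Haus3 and high Pard6a and Plk1 points in S51 vehicle are the library that stood apart.

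The gamma-tubulin complex, whose 7 measured members are Tubg1, Tubgcp2 to Tubgcp6 and the adaptor Nedd1, had no member pass in RPF after bortezomib in either genotype (edgeR; at an unadjusted p below 0.05, 1 member in each, and 0 by DESeq2). Of all genes tested, 14.8% rose and 16% fell in RPF of S51, and 9.25% rose and 11.4% fell in S51A. None of the 7 members passed without the S51 vehicle library that stood apart either. The median RPF log2 fold change of the complex was -0.08 in S51 and 0.14 in S51A. In S51 its members ran from -0.20 ± 0.14 for Tubgcp4 to 0.49 ± 0.20 for Tubgcp5 (edgeR adjusted p = 0.279 and 0.07). Tubg1 was at 86.4, 113 and 93.1 CPM in S51 vehicle and 98.3, 96.6, 92.3 and 80.7 CPM in S51 bortezomib cells. In S51A it was at 105, 89.5, 95.9 and 93.7 CPM in vehicle and 108, 103, 110 and 106 CPM in bortezomib cells. The groups overlapped in both genotypes, with log2 fold changes of -0.08 ± 0.11 (0.02 without replicate 2) and 0.16 ± 0.10. In total RNA, 1 member of this complex rose and 1 fell in each genotype: Tubgcp3 rose in S51 (0.28), Tubgcp4 rose in S51A (0.15), and Nedd1 fell in both (-0.29 and -0.17). With the replicate number as a block, Tubg1 (0.098) and Tubgcp3 (0.078) passed in S51A as well. Of all genes tested in total RNA without the block, 29.7% rose and 30.2% fell in S51, and 27.5% rose and 28.9% fell in S51A.

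The pericentriolar scaffold holds Pcnt (pericentrin), Cdk5rap2, Akap9, Nin, Ninl and Cep192. RPF of Pcnt was 49.6, 50.3 and 43.6 CPM in S51 vehicle and 52.4, 62.2, 61.3 and 59.4 CPM in S51 bortezomib cells. The groups did not overlap, but the change missed the threshold (0.31 ± 0.14, edgeR adjusted p = 0.112, and 0.35 with 0.0672 without replicate 2). In total RNA, Pcnt rose from 81.2, 76.9, 75.6 and 70.5 CPM to 100, 88.7, 92.4 and 86.1 CPM (0.27 ± 0.05, edgeR adjusted p = 6.2e-05). In S51A, neither RPF (0.03 ± 0.14) nor total RNA (0.06 ± 0.05) of Pcnt passed. Akap9, which tethers the gamma-tubulin complex at the centrosome and Golgi, was the scaffold gene with the highest RPF change in S51 (0.58 ± 0.22) and Nin, which anchors microtubule minus ends, the one with the lowest (-0.46 ± 0.24, edgeR adjusted p = 0.159). Akap9 missed the threshold in 12 of the 15 fits that left out 1 library, with edgeR adjusted p up to 0.157 and a change of 0.33 without replicate 2.

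In the remaining subsets, the genes at the ends of the RPF range in S51 were as follows. Among centriole duplication genes, Cep152, which recruits Plk4, was highest (0.56 ± 0.29) and Plk4, the kinase that starts duplication, lowest (-0.42 ± 0.26), and neither passed with all libraries. Without replicate 2 of S51 vehicle, Plk4 passed at -0.64 and Cep152 was at 0.45. Among satellite proteins the range was from Ofd1 (-0.15 ± 0.25) to Cep290 (0.59 ± 0.33), and in augmin from Haus4 (-0.49 ± 0.23) to Haus3. Centriole structure ran from Cntrob to Cep76, a protein that limits centriole copying. Appendage and linker genes ran from Cep164 (-0.66 ± 0.29) to Cep350 (0.64 ± 0.25), and neither end passed. Among the remaining Cep genes, Cep43 was lowest (0.00 ± 0.33) and Cep70 highest (0.50 ± 0.38). Cntrob, a daughter centriole protein, was at 6.38, 13.5 and 5.23 CPM in S51 vehicle and 5.09, 4.78, 3.03 and 2.80 CPM in S51 bortezomib cells. Its highest vehicle value came from the library that stood apart, and without it the edgeR adjusted p was 0.222.

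In S51A cells the genes that moved in RPF after bortezomib mostly fell. Of 65 genes, 2 rose (3.08%, against 9.25% of all genes tested) and 9 fell (13.8%, against 11.4%), with a median of -0.16 against -0.01 over all genes. Without the S51 vehicle library that stood apart, which enters this comparison through the filter, the scaling and the shared estimate of spread, 6 of 68 rose (against 14.5% of genes) and 13 fell (against 16.1%), and 11 passed in both. The genes that fell were Cep44 (-0.999), Cntrob (-0.98), Cspp1 (-0.85), Cep295 (-0.79), Stil (-0.76), Plk1 (-0.70), Cep78 (-0.67), Cep68 (-0.64) and Cep55 (-0.62). Haus8, the augmin subunit that binds microtubules, rose (0.65), as did Cep20 (0.34). Cep55, Cep78, Haus8, Plk1 and Stil passed whichever library was left out. Of the other 6, Cep295 missed the threshold only without replicate 4 of S51A vehicle (edgeR adjusted p = 0.0514) and Cep68 only without replicate 2 of S51A bortezomib (0.0546). Cep44 missed it without either of those libraries (0.0566 and 0.0535), Cep20 without any of 6 libraries (up to 0.119), Cntrob without any of 6 (up to 0.0986) and Cspp1 without any of 10 (up to 0.142).

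Haus8 gave the clearest rise. It was at 16.8, 20.5, 21.2 and 24.1 CPM in RPF of S51A vehicle and at 33.5, 34.6, 29.1 and 34.4 CPM in S51A bortezomib cells, without overlap (0.65 ± 0.15, edgeR adjusted p = 0.00358). Total RNA of Haus8 rose in S51A from 26.4, 26.02, 22.6 and 25.3 CPM to 34.98, 37.3, 35.4 and 39.8 CPM (0.55 ± 0.06). In S51, its total RNA rose by less (0.29 ± 0.06), and the difference of the total RNA responses passed (-0.26 ± 0.09, edgeR adjusted p = 0.0418). That difference missed the threshold in 9 of the 16 fits without 1 library (up to 0.11). The median RPF change of the 8 augmin genes was 0.14 in S51 and 0.12 in S51A. In each genotype 1 of the 8 rose (against 14.8% of genes tested in S51 and 9.25% in S51A) and none fell (against 16% and 11.4%). Without replicate 2 of S51 vehicle, Haus3 (0.41) and Haus6 (0.32) passed in S51A as well, and Haus1 fell in S51 (-0.35).

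Both mitotic genes, Plk1 and Cep55, fell in S51A. RPF of Plk1 was 251, 300, 291 and 298 CPM in S51A vehicle and 159, 179, 189 and 180 CPM in S51A bortezomib cells, and every treated library was below every vehicle library (-0.70 ± 0.10, edgeR adjusted p = 3.0e-05). In S51, Plk1 was at 277, 380 and 277 CPM in vehicle and 217, 235, 247 and 230 CPM in bortezomib cells. Those groups were separate as well (-0.42 ± 0.11, edgeR adjusted p = 0.00586), and without replicate 2, which gave the 380 CPM, the change was -0.25 and passed. RPF of Cep55 was 127, 140, 118 and 157 CPM in S51A vehicle and 95.4, 87.7, 73.3 and 97.1 CPM in S51A bortezomib cells (-0.62 ± 0.14, edgeR adjusted p = 0.00322), again without overlap. In S51 it was 132, 76.4 and 131 CPM in vehicle and 103, 88.0, 112 and 111 CPM in bortezomib cells, with the low vehicle value from replicate 2. The change there was -0.13 ± 0.16 (edgeR adjusted p = 0.556), and -0.32 without that replicate, where it passed. For neither gene did the difference of the RPF responses pass with all libraries (0.28 ± 0.15 for Plk1 and 0.48 ± 0.21 for Cep55). Without replicate 2 of S51 vehicle, that of Plk1 passed (0.45, edgeR adjusted p = 0.0104) and that of Cep55 did not (0.29, 0.294).

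The promoters of both genes are printed because genes of mitosis are known to share short promoter elements, the cell cycle homology region (searched as TTTGAA or TTCAAA, which are each other's reverse complement) and the CCAAT box (searched as CCAAT or ATTGG). Each line runs 5′ to 3′ from 250 bases before to 50 bases after the RefSeq start, on the plus strand of GRCm38, at chr7:122159185-122159484 for Plk1 and chr19:38054734-38055033 for Cep55, with matches in capitals.
Plk1: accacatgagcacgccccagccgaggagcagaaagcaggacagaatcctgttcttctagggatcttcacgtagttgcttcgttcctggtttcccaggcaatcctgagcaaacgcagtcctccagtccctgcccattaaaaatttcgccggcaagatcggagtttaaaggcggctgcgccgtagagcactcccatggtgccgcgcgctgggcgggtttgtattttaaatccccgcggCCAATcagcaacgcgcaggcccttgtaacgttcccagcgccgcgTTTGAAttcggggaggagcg
Cep55: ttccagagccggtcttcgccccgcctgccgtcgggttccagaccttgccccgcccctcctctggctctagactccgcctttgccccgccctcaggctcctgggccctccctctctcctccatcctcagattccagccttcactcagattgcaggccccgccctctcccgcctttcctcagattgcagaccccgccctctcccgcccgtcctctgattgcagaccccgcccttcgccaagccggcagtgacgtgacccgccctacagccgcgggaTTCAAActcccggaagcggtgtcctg
The hexamer lay 31 bases after the start in Plk1 and 25 in Cep55, and a CCAAT began 14 bases before the start in Plk1. A promoter entry was found for 60 of the 73 genes. The hexamer was present in 14 of them (23.33%, against 20.23% of all genes with an entry) and CCAAT in 31 (51.67%, against 41.06%). These are matches of letters, and binding was not measured.

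In total RNA, where the counts are deeper, more of these genes passed, with small changes. In S51 cells 18 of 71 rose (25.4%, against 29.7% of 11708 genes tested) and 20 fell (28.2%, against 30.2%). In S51A cells 12 rose (16.9%, against 27.5%) and 29 fell (40.8%, against 28.9%), with a median of -0.10 against -0.01 over all genes. With the replicate number as a block, 15 rose and 29 fell in S51A, and no call was lost. Scaling by library size alone moved the median of all genes by -0.16 in S51 and -0.13 in S51A, and gave 6 risen and 32 fallen members in S51 and 6 risen and 39 fallen in S51A. No member passed with a change above 2-fold in either genotype, against 4.99% of genes in S51 and 4.18% in S51A. The lowest values in S51A were those of Cntrob (-0.97), Cep44 (-0.93), Cep78 (-0.75), Cep295 (-0.74) and Cep131, a satellite protein (-0.74), and the highest was Cep19, which is needed to start cilium assembly (0.72). By subset, 6 of 10 centriole duplication genes and 3 of 5 satellite genes fell in S51A, against 4 and 1 in S51, and the augmin counts were the same in both genotypes, with 4 of 8 genes risen and 2 fallen.

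The total RNA response differed between the genotypes for 22 of 71 genes, 18 being higher in S51 (25.4%, against 12.0% of all genes tested) and 4 lower (5.63%, against 9.58%). The median difference was 0.12, against 0.00 over all genes, and 15 of the 22 passed whichever library was left out. With the replicate number as a block, 20 were higher and 7 lower, and no call was lost. With library size alone as the scale, 14 were higher and 7 lower. The pericentriolar scaffold contributed 4 of its 6 genes, Cep192 (0.41), Cdk5rap2 (0.36), Akap9 (0.33) and Pcnt (0.21), of which Pcnt missed the threshold in 10 of the 16 fits without 1 library (edgeR adjusted p up to 0.0941). Both mitotic genes passed, Plk1 (0.45) and Cep55 (0.37). Of the satellite genes, Cep290 (0.43) and Pcm1 (0.41), the protein on which satellites assemble, passed, and the gamma-tubulin complex contributed Tubgcp3 (0.21). Pcm1 was at 90.4, 87.5, 95.2 and 91.8 CPM in S51 vehicle and 115, 98.0, 117 and 101 CPM in S51 bortezomib cells, without overlap. In S51A it was at 106, 107, 103 and 103 CPM in vehicle and 94.5, 93.0, 96.2 and 90.5 CPM in bortezomib cells, again without overlap and in the opposite direction. The genes with the lower response in S51 included Cep19 (-0.48), Haus8 (-0.26) and Cep164 (-0.21).

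**Figure D3:**
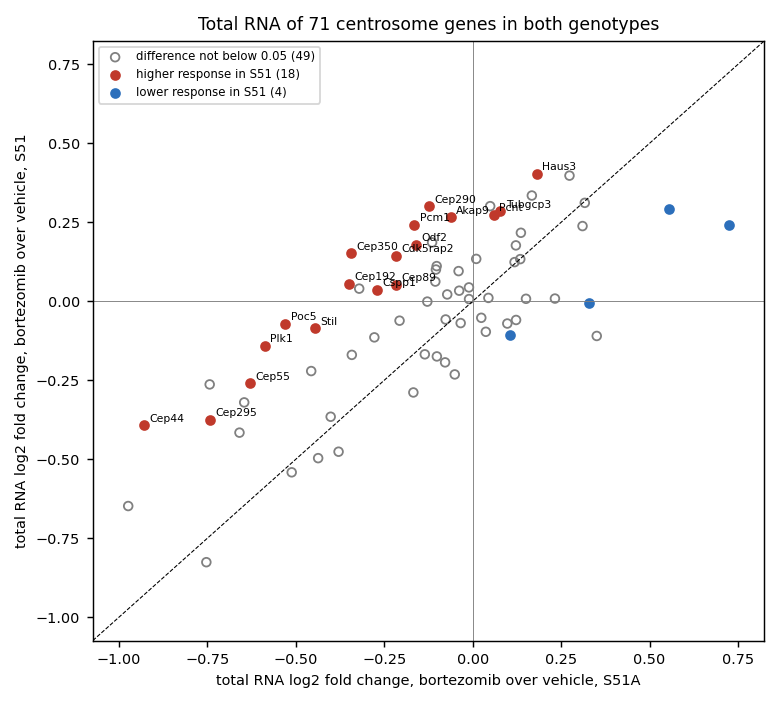
Total RNA log2 fold change of bortezomib over vehicle in S51A (x axis) and S51 (y axis), with the dashed line where both are equal, for 71 genes. The 18 red points, labelled by gene, had a higher response in S51 and the 4 blue points a lower one (edgeR adjusted p below 0.05 for the difference), and the 49 grey points did not pass.

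Genes of G2 and mitosis moved with this difference. Of 18 such genes, 12 rose (against 29.7% of genes tested) and 3 fell (30.2%) in total RNA of S51 (edgeR). In S51A none rose (27.5%) and 16 fell (28.9%). The total RNA response was higher in S51 for 17 of 18 (against 12.0% of genes tested), with a median difference of 0.47. In RPF their response was higher in S51 for 7 of 18 (1.04%). Genes of S phase did not move this way: the total RNA response was higher in S51 for 0 of 14 (12.0%, edgeR) and lower for 3 (9.58%), with a median of -0.04. The part of the cell cycle in the difference of the centrosome genes was not tested.

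Between the genotypes under vehicle, RPF of 7 of 65 genes was higher in S51A (10.8%, against 14.8% of genes tested) and of 6 lower (9.23%, against 13.8%). Without the S51 vehicle library that stood apart, 5 of 68 were higher and 8 lower, and 11 of the 13 passed in both, all but Cspp1 and Stil. Ninl, a scaffold protein related to ninein, had the largest difference. Its RPF level was 8.86, 8.70 and 6.97 CPM in S51 and 1.87, 3.17, 2.90 and 2.23 CPM in S51A vehicle cells (-1.62 ± 0.29, edgeR adjusted p = 0.000305, and -1.57 without replicate 2 of S51, where it passed). Total RNA of Ninl was 17.3, 17.3, 17.9 and 15.8 CPM in S51 and 8.62, 7.57, 8.68 and 8.32 CPM in S51A (-1.04 ± 0.07). The groups were separate in both measures, but Ninl met the RPF count filter only through S51 libraries. In the opposite direction, Cep43, which works with the appendage-linked protein Cep350, was higher in S51A, at 10.3, 11.2, 10.4 and 12.4 CPM against 4.61, 2.90 and 5.73 CPM in S51 (1.26 ± 0.26), and Cep350 itself was also higher (1.06 ± 0.22). In total RNA 18 of 71 genes were higher in S51A (25.4%, against 31.4%) and 22 lower (against 32.4%).

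Under bortezomib, RPF of 13 of 65 genes was higher in S51 than in S51A (against 14.9% of genes tested) and of 4 lower (6.15%, against 16.6%). With that vehicle library left out, 15 of 68 were higher and 6 lower, and all 17 passed in both. The 13 were Sfi1 (2.06), Ninl (1.70), Cep295 (1.45), Pard6a (1.22), Cep78 (1.05), Cspp1 (1.04), Plk4 (0.97), Cep68 (0.82), Cep57 (0.69), Cdk5rap2 (0.65), Alms1 (0.63), Pcnt (0.61) and Plk1 (0.40), and the 4 were Cep43 (-1.05), Tubgcp4 (-0.98), Haus8 (-0.50) and Cep120 (-0.40). All but Cspp1, Cep120 and Haus8 passed whichever library was left out. Sfi1 and Ninl met the RPF count filter only through S51 libraries, so their direction in RPF is not independent evidence. Cspp1 missed the threshold without replicates 3 or 4 of S51 bortezomib or 2 or 3 of S51A bortezomib (edgeR adjusted p up to 0.0775), Cep120 without any of 3 libraries (up to 0.0731) and Haus8 without any of 5 (up to 0.117). In total RNA 33 of 71 genes were higher in S51 (46.5%, against 32.4%) and 13 lower (18.3%, against 33.3%). With the replicate number as a block, 34 were higher and 13 lower. In the fit without the block, Ninl (1.13), Cep295 (1.00) and Cep19 (-1.04) differed by more than 2-fold, against 8.28% of genes in either direction.

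Cep295, needed to turn new centrioles into centrosomes, was at 28.4, 18.2, 24.2 and 27.4 CPM in RPF of S51 bortezomib and 7.41, 10.2, 9.88 and 9.29 CPM in S51A bortezomib cells. The groups were far apart (1.45 ± 0.22, edgeR adjusted p = 2.84e-05). Under vehicle, Cep295 was at 25.9, 15.95 and 28.1 CPM in S51 and 13.6, 15.4, 13.7 and 18.7 CPM in S51A, where the groups overlapped (-0.61 ± 0.19 for S51A over S51, edgeR adjusted p = 0.0195). That vehicle difference missed the threshold without replicates 1 or 3 of S51 vehicle or 2 or 3 of S51A vehicle (up to 0.101). Tubgcp4, a ring complex subunit, was at 27.7, 34.4, 34.0 and 38.6 CPM in S51 and 65.4, 73.1, 64.5 and 64.995 CPM in S51A bortezomib cells (-0.98 ± 0.12, edgeR adjusted p = 3.55e-06). It was the only gene of the gamma-tubulin complex to pass between the genotypes in RPF under bortezomib with all libraries, and Tubg1 (-0.22) passed too without replicate 2 of S51 vehicle. Pcnt was at 49.6, 33.1, 34.8 and 35.2 CPM in S51A bortezomib cells, all below the S51 values given above (0.61 ± 0.14, edgeR adjusted p = 0.00206).

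The comparisons under vehicle and under bortezomib share no library. In RPF, 6 genes were higher in S51 in both (Cdk5rap2, Cep295, Cep68, Cep78, Ninl and Plk4) and 3 were higher in S51A in both (Cep120, Cep43 and Tubgcp4), together 13.8% of the 65 genes against 16.6% of all genes tested. Cspp1 passed in opposite directions. Under vehicle, Plk4 and Cspp1 each missed the threshold in 5 of the 15 fits without 1 library (edgeR adjusted p up to 0.21 and 0.171). In total RNA, 18 were higher in S51 and 7 in S51A in both, 35.2% against 48.6% of all genes, and Cep192, Cep55 and Pcm1 passed in opposite directions.

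The ratio of RPF to total RNA passed for few of these genes. After bortezomib in S51, 1 of 65 was higher (1.54%, against 2.38% of 9424 genes tested) and 1 lower (1.54%, against 7.27%). The gene with the lower ratio was Tubgcp3 (-0.49 ± 0.13, edgeR adjusted p = 0.0157), which missed the threshold without replicates 3 or 4 of S51 bortezomib or 1 of S51 vehicle RPF (0.0624 to 0.0722). With the lysate as a block its adjusted p was 0.0912, and no member passed in the S51 ratio. Without the S51 vehicle library that stood apart, 2 of 68 were higher (against 2.13% of genes) and 3 lower (against 6.96%). In S51A no member passed by edgeR or DESeq2, with 1 in each direction at an unadjusted p below 0.05, against 0.106% of genes higher and 1.24% lower. Between the genotypes under vehicle no member passed by edgeR (6 higher and 2 lower at an unadjusted p below 0.05, and 1 in each direction by DESeq2), against 0.0743% and 0.0318%. The difference of the ratio responses was higher in S51 for Cspp1 alone (0.223% of genes) and lower for none (1.5%), with 1 lower by DESeq2.

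Under bortezomib the ratio was higher in S51 than in S51A for 3 genes (4.62%, against 1.31%) and lower for 3 (4.62%, against 5.09%). Those higher were Sfi1 (2.18 ± 0.49), Pard6a (1.25 ± 0.36) and Cspp1 (0.97 ± 0.30). The study chose Pard6a and Cspp1 partly on this comparison in these libraries, so the excess of 4.62% over 1.31% is not independent evidence. Those lower were Cep83, a distal appendage protein (-0.98 ± 0.28), Tubgcp4 (-0.55 ± 0.12) and Tubgcp3 (-0.54 ± 0.13). With the lysate as a block, Sfi1, Pard6a and Tubgcp4 passed, and Cep83 (edgeR adjusted p = 0.0986), Cspp1 (0.0992) and Tubgcp3 (0.0571) did not. Only Sfi1 and Tubgcp4 passed whichever of the 31 libraries was left out. Pard6a missed the threshold without any of 6 libraries (edgeR adjusted p up to 0.122), Cspp1 without any of 17 (up to 0.17), Cep83 without any of 3 (up to 0.158) and Tubgcp3 without replicate 1 of S51A bortezomib RPF (0.093). Sfi1, a centrin-binding protein, is uncertain. It met the RPF count filter only through S51 libraries, the genotype then called higher, so its direction is not independent evidence. It was at 2.91, 10.5, 4.16 and 3.92 CPM in RPF of S51 and 0.967, 0.487, 1.04 and 1.93 CPM of S51A bortezomib cells, from 1 to 11 counts per library. The mouse genome is known to hold near-identical copies of Sfi1, and how its reads were shared among them was not tested.

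**Figure D4:**
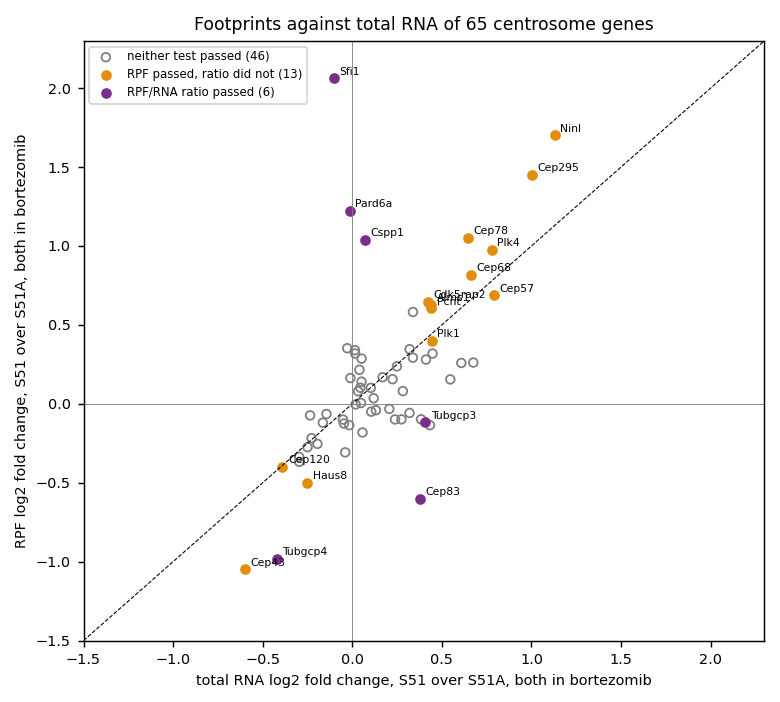
Log2 fold change of S51 over S51A in bortezomib-treated cells, total RNA (x axis) against RPF (y axis), for the 65 genes tested in both. The 6 purple genes passed in the ratio, the 13 orange genes in RPF but not in the ratio and the 46 open circles in neither; Sfi1, Pard6a and Cspp1 lie far above the dashed line where both changes are equal.

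Where RPF passed, total RNA usually passed in the same direction. This held for 10 of 11 genes after bortezomib in S51 (all genes tested: 80.4%), 11 of 11 in S51A (92.6%), 12 of 13 between the genotypes under vehicle (93.6%) and 14 of 17 under bortezomib (82.4%, against 87.6%). The exception in S51 was Cspp1, and those under bortezomib were Cspp1, Pard6a and Sfi1.

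A further 37 centrosome and spindle pole genes outside this set were measured for comparison, 32 of them in RPF. In S51 bortezomib cells 6 of the 32 rose (against 14.8% of genes tested) and 5 fell (16%), and in S51A 1 rose (9.25%) and 5 fell (11.4%). The RPF response was higher in S51 for 4 (against 1.04% of genes tested). Among them were Atf5, an ISR transcription factor also found at the centrosome (1.42 ± 0.30), and Rnf19a, a ubiquitin ligase (1.01 ± 0.23). The others were Ckap5, a microtubule polymerase of spindle poles (0.79 ± 0.18), and Aurka, the mitotic kinase that matures centrosomes (0.45 ± 0.12). The study chose Atf5 as a target from these same libraries, and the list was drawn up with earlier results of these data known. Neither the direction of Atf5 nor the counts of this list against all genes are therefore independent evidence. Total RNA responded more in S51 for 12 of the 37 (against 12.0% of genes tested) and less for 3 (9.58%).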

How the data were processed

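Per the labels and the study's methods, ribosome-protected fragments were prepared after RiboCop rRNA depletion and total RNA with a TruSeq rRNA depletion kit, and the submitters' processing notes name Bowtie2, featureCounts, DESeq2 and the build mm10. The authors deposited raw counts per Entrez gene, RPF within coding sequences, after removal of rRNA reads and, per the column names, of reads outside unique positions. Entrez IDs were matched to symbols for 20687 of 20704 RPF genes and 24569 of 24593 total RNA genes. Columns were assigned by the labels as corrected in the series note on exchanged titles. Members and lists were chosen with earlier results of these data known.

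Counts were fitted with edgeR 4.0.16 (TMM, filterByExpr with a minimum count of 10 and a total of 15, quasi-likelihood test, R 4.3.3) with group as the only term, over 15 RPF and 16 total RNA libraries and, for the ratio, as an interaction over 31. CPM are counts divided by the library's count sum times its TMM factor, multiplied by 1000000. Named genes were Pcnt, Tubg1, Cspp1, Pard6a and Hap1, every member past the threshold with a fold above 1.5 (RPF, ratio) or 2 (total RNA), and the ends of the RPF range of each subset in S51. Other genes, such as Pcm1 and Stil, were named after their values were seen. Alternatives were DESeq2 1.42.0, other scalings and filters, the groups compared alone, replicate or lysate blocks (a lysate being the RPF and total RNA libraries of the same group and number) and each library left out. Same-numbered total RNA libraries deviated together by over 0.1 in all 4 pairs of S51A vehicle with S51A bortezomib (correlations 0.114 to 0.321) and of S51 with S51A bortezomib (0.123 to 0.246), so blocked counts are given there. Only RPF level, total RNA level and their ratio were measured, and protein was not analysed here. The values of 1 member are not reported here, and it stays in the counts.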

Additional observations from a re-analysis of the deposited data

Results flagged for a closer look

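Responses to bortezomib that differed between S51 and S51A cells are given here as S51 minus S51A on the log2 scale, each past the threshold in edgeR's test of the difference itself. Cspp1 differed in RPF by 1.91 and in the ratio of RPF to total RNA by 1.58. With 1 library left out, the RPF difference missed the threshold in 8 of 15 fits and the ratio difference in 12 of 31. With the lysate as a block, the ratio difference missed it too (edgeR adjusted p = 0.105). In total RNA, the scaffold genes Cep192 (0.41), Cdk5rap2 (0.36), Akap9 (0.33) and Pcnt (0.21) responded more in S51, as did the satellite genes Cep290 (0.43) and Pcm1 (0.41) and the mitotic genes Plk1 (0.45) and Cep55 (0.37). The same direction was seen for the duplication genes Cep295 (0.37) and Stil (0.36), the structural genes Cep44 (0.54) and Poc5 (0.46), the appendage genes Cep350 (0.49), Odf2 (0.34) and Cep89 (0.27), and for Haus3 (0.22), Tubgcp3 (0.21) and Cspp1 (0.30). The response was lower in S51 for Cep19 (-0.48), Haus8 (-0.26) and Cep164 (-0.21). Of the 16 fits of total RNA that left out 1 library, the difference missed the threshold in 10 for Pcnt, 9 for Haus8, 8 each for Cspp1 and Cep164, 6 for Stil, 4 for Haus3 and 3 for Cep89.

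Single libraries far from the rest of their group were looked for in 182 groups of 4 among 26 named genes, and 14 were found, where chance gives about 1 in 20. In RPF, replicate 2 of S51 bortezomib, the shallowest library, was high for Cep350 (17.2 CPM), Cep44 (13.4 CPM) and Sfi1 (10.5 CPM), replicate 1 of S51A bortezomib for Pcnt (49.6 CPM) and Stil (29.0 CPM), and replicate 2 of S51A bortezomib for Tubgcp4 (73.1 CPM). Pard6a was high in replicate 3 of S51A bortezomib (8.32 CPM), and Cep68 stood at 16.05 CPM in replicate 2 of S51A vehicle. In total RNA the libraries were replicate 3 of S51A bortezomib for Cep43 (29.9 CPM), replicate 4 for Cep55 (132.4 CPM) and replicate 2 for Cep78 (10.55 CPM), and in S51 vehicle replicate 1 for Cspp1 (17.3 CPM), replicate 3 for Pard6a (6.70 CPM) and replicate 2 for Tubgcp4 (55.7 CPM).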

How the results depend on the processing

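Counts are of members that passed in either direction. In RPF after bortezomib in S51, 11 passed as reported, 5 under a stricter filter (10 counts in each RPF library), 7 with a replicate block, 2 with only the groups compared and 3 with a fold threshold in addition. With only the groups compared, 19 passed in S51A and 8 between genotypes under vehicle. The RPF response difference held 2 with no filter and 2 with the replicate block. With a fold threshold in addition, total RNA held 0, 0, 3, 1 and 0 in S51, S51A, between genotypes under bortezomib, under vehicle and for the response difference. For the ratio in S51, library sizes alone gave 5 and a median of 0.22, the lysate block 0 and the fold threshold 1. Under bortezomib the ratio held 2 with the strict filter and 3 with the lysate block. Its response difference held 2 by DESeq2 and 0 with the strict filter, the lysate block or no filter. Under vehicle it held 2 by DESeq2. Total RNA medians with library sizes alone were -0.15 in S51, -0.22 in S51A, 0.0488 under bortezomib and 0.0863 for the response difference, and -0.0362 under vehicle with no filter. The cause of these shifts was not tested.

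With single libraries left out, RPF counts were 3 to 12 in S51, 6 to 19 in S51A, 10 to 16 under vehicle, 14 to 21 under bortezomib and 0 to 3 for the response difference. Ratio counts were 0 to 5, 0 to 1, 0 to 5, 3 to 7 and 0 to 2 in the same order. Medians ranged from -0.0654 to 0.19 in RPF of S51, -0.20 to -0.11 in RPF of S51A and 0.00301 to 0.19 in the ratio response difference. In total RNA they ranged from -0.11 to -0.067 in S51A, -0.0496 to -0.00935 under vehicle, 0.0778 to 0.12 under bortezomib and 0.0947 to 0.16 for the response difference. Of 85 values of single named genes, 7 in RPF or the ratio changed sign between settings, none of which passed in any setting. Total RNA values of Cspp1, Hap1, Pard6a, Pcnt and Tubg1 changed sign too. Of these, only Tubg1 in S51A (-0.017 to 0.13) passed in any setting, in 3 of 23. Under other settings 524 values kept their direction and their side of the threshold, 24 lost it, 4 gained it and 13 moved.

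Libraries with the same replicate number correlated in their deviations from the group means by -0.166 to 0.269 in RPF (median 0.034, against -0.023 for different numbers), so the numbers are not taken as pairs there. In total RNA all 24 such correlations were above 0 (median 0.138, against -0.043), and the replicate block lost no call of a member in any total RNA comparison. RPF and total RNA libraries of the same group and number correlated by -0.065 to 0.366 (median 0.118, against -0.032 for different numbers). The main test of the ratio leaves out this pairing, so its calls are to be read with those under the lysate block. RPF depth limits the low genes: members such as Sfi1, Hap1 and Cspp1 rest on few counts, and changes of their size in other low genes could go undetected.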
